A study of Mus musculus with 8 samples.

Results

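The respiratory chain and the ATP synthase were described here through 112 genes of the 21524 in a table of gene expression from mouse regulatory T cells. They were taken by symbol: every gene named mt-, the subunit families Nduf (letters a, b, c, s and v), Sdh, Uqcr, Cox4 to Cox8 and Atp5, and the cytochrome genes Cycs and Cyc1. The nucleus encodes 99 of them and the mitochondrial genome the other 13, all 13 of which code for protein. The nuclear genes divide into 38 of complex I, 8 complex I assembly factors named Ndufaf, 4 of complex II, 9 of complex III with Cyc1, the mobile carrier Cycs, 21 of complex IV and 18 of the ATP synthase. Ndufa4 and its paralog Ndufa4l2 were counted with complex IV, to which the Ndufa4 protein belongs despite its name.

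RNA came from regulatory T cells sorted out of mouse spleen by flow cytometry, with 4 libraries labelled IL-2 (numbers 41 to 44) and 4 labelled control (numbers 45 to 48). These are the suppressive CD4 T cells that hold immune reactions in check, and IL-2 is the cytokine that sustains them. The text of the series describes an engineered IL-2 (a mutein) given with 1 dose of CTLA-4 Ig, a co-stimulation blocker, to C57BL/6 mice carrying BALB/c hearts or kidneys, and Treg-specific ST2 knockouts in other experiments. For these 8 libraries the labels name only the tissue and the treatment: whether the IL-2 was the mutein, whether CTLA-4 Ig or a graft was present, what the controls received, and the animals' strain and age were not stated in the sources used. The labels do not say that each library came from its own animal, so p measures how these libraries scatter, which may be partly technical. The Y-linked transcript Ddx3y was listed at 0 in IL-2 libraries 41 and 42 and control library 45 and present in the other 5, so in neither group did all 4 come from the same animal.

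Most cells draw the greater part of their ATP from this system when oxygen is at hand. Complexes I and II take electrons from NADH and succinate and pass them to coenzyme Q, complex III hands them to cytochrome c, and complex IV gives them to oxygen; complexes I, III and IV pump protons across the inner mitochondrial membrane, and the ATP synthase lets protons back through its ring and turns its F1 head to make ATP. Both genomes contribute subunits to complexes I, III and IV and to the ATP synthase, while complex II is encoded in the nucleus alone. Activated T cells build mitochondria as they grow, and regulatory T cells are known to rely on respiration.

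The start regions of members were examined for motifs known from respiratory genes, the sites of NRF1, of ETS factors such as GABPA, and of YY1. Exact letters were searched on both strands in RefSeq windows (GRCm38.p6), with GCGCATGC for NRF1, CCGGAAG for ETS and AAGATGGC for YY1, none of which contains another. Of the 99 nuclear members 77 had a window. The NRF1 letters stood in 16.9% of these genes (13 of 77) and in 6.93% of the 6931 tested genes with windows of equal length. The YY1 letters stood in 14.3% (11 of 77) against 6.26%, and the ETS letters in 23.4% (18 of 77) against 23.9%. Among the 22 members with a window that passed the test described below, 4 held the NRF1 letters, 2 the YY1 letters and 4 the ETS letters. The 6 with NRF1 or YY1 letters are printed with the motif in capitals, and those with ETS letters are not printed. Each runs from 90 bases before to 50 bases after the annotated start, 5′ to 3′ on the gene's strand. Counts and shares refer to the whole windows, which are longer than the bases printed. Where the 2 strands match in overlap, as in Atp5mc2 and Uqcrc1, the capitals span both.
Cycs (chr6:50566520-50566659, minus strand): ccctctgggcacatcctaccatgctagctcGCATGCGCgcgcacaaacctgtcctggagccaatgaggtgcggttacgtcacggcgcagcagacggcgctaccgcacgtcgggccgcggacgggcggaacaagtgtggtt
Atp5mc2 (chr15:102670998-102671137, minus strand): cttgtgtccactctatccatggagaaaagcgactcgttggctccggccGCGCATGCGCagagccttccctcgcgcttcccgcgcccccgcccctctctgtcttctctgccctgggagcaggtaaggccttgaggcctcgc
Ndufa6 (chr15:82354242-82354381, minus strand): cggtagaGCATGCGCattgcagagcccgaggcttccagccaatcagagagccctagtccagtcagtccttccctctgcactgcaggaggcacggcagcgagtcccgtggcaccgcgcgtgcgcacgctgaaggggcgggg
Uqcrc1 (chr9:108936558-108936697, plus strand): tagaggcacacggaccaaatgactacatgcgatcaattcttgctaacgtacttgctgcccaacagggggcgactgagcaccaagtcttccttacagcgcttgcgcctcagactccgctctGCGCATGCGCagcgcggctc
Ndufb8 (chr19:44555393-44555532, minus strand): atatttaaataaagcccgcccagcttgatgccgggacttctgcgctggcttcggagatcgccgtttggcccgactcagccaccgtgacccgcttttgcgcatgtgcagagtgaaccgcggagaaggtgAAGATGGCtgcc
Ndufc1 (chr3:51408906-51409045, minus strand): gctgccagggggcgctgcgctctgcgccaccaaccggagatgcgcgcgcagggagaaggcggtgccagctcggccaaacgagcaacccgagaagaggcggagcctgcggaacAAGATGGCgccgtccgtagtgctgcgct
In the first 3 the capitals lie before the start, and in the last 3 they lie within the transcribed bases. The NRF1 letters were present in 18.2% of the 22 members that passed and in 16.3% of the 49 tested members that did not. The ETS letters were present in 18.2% and 28.6%, and the YY1 letters in 9.09% and 18.4%. A match describes letters in a window and shows neither binding nor its absence.

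With IL-2, 30 of the 99 members that could be tested rose and none fell (limma, Benjamini-Hochberg adjusted p under 0.05). At an unadjusted p under 0.05, 51 were higher and 0 lower, where 18.3% of all tested genes were higher and 16.4% lower at that level. A limma fit on log2 of reads plus 5 called 28 of 102 higher and 0 lower, where it called 20% of 10822 genes, 10.8% higher and 9.14% lower. Over all 8644 tested genes 22.7% passed, 12.6% upward and 10.1% downward. The median ratio of group means, IL-2 over control, was 1.28 for the members and 0.993 for all tested genes. The 93 members with a positive difference compare with 48.9% of all tested genes, and in 38 members every IL-2 library lay above every control, which held for 14.1% of tested genes. In none was every IL-2 library below, against 11.6% of tested genes. The list was chosen with earlier results of these data known, and no test was made of it as a list.

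Values named normalised reads were recovered from the deposited variance-stabilised log2 values, and ratios are of group means of such reads. Values for single libraries follow the order of library numbers, 41 to 44 and then 45 to 48. Log2 differences are on the deposited scale, which is compressed at low counts: 1 unit above its lowest value stands for 206 normalised reads, so they understate ratios. A gene was tested when its mean over the 8 libraries exceeded the lowest value by 0.5 or more, or 50.04 normalised reads. On that ground 13 members were not tested. Libraries held 4953547 to 6399418 estimated reads with IL-2 and 4970820 to 6147506 in the controls. Counting error alone gave a coefficient of variation of 13.7% for the tested member with the fewest reads, Ndufaf2, and of 2.24% for Atp5f1b.

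**Figure D1:**
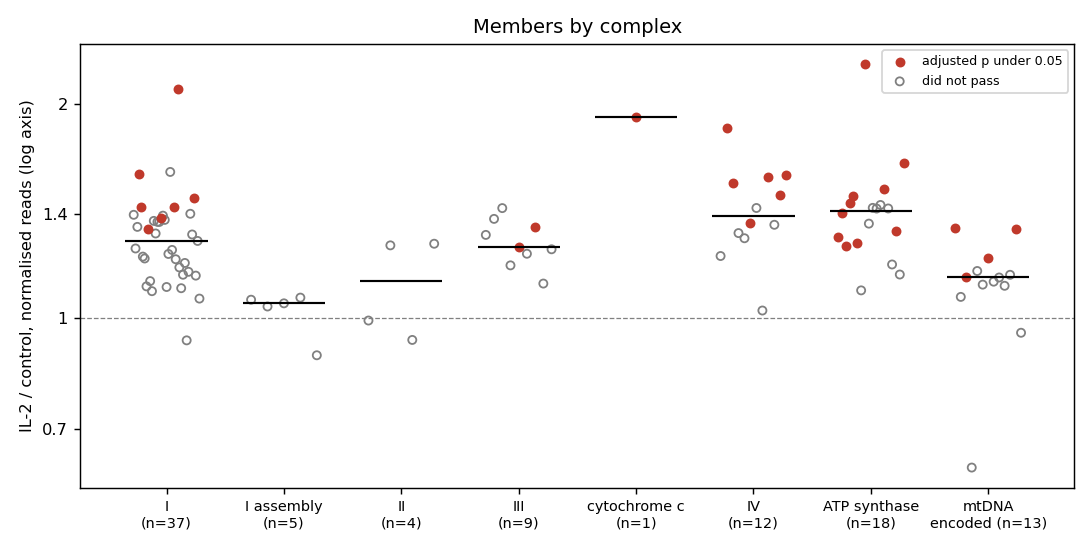
Ratio of group means of normalised reads, IL-2 over control, on a log axis for the 99 tested members, by complex; each point is 1 gene, filled where the adjusted p was under 0.05, and bars are medians. Points of the ATP synthase and complex IV centre on 1.42 and 1.39, those of complex I assembly factors on 1.05.

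Of the nuclear members, 26 of 86 tested rose (30.2%), with a median ratio of 1.31. Of the mitochondrially encoded ones 4 of 13 rose (30.8%), with a median ratio of 1.14. Over all tested genes 12.6% rose. Nuclear members made up 0.577%, 0.563%, 0.573% and 0.609% of recovered reads in IL-2 libraries 41 to 44, against 0.481%, 0.468%, 0.459% and 0.450% in control libraries 45 to 48. The mean was 0.581% ± 0.0201 with IL-2 and 0.464% ± 0.0131 in the controls (SD, n = 4 each), and the groups did not overlap. Mitochondrially encoded members made up 1.80%, 1.76%, 1.65% and 1.73% with IL-2 against 1.60%, 1.56%, 1.52% and 1.45%, with means of 1.73% ± 0.0650 and 1.53% ± 0.0654. These groups did not overlap either. Such shares sum over genes of unequal length and weigh long and abundant transcripts most. In bulk RNA, a larger share of cells rich in these transcripts and more transcript per cell cannot be told apart.

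**Figure D2:**
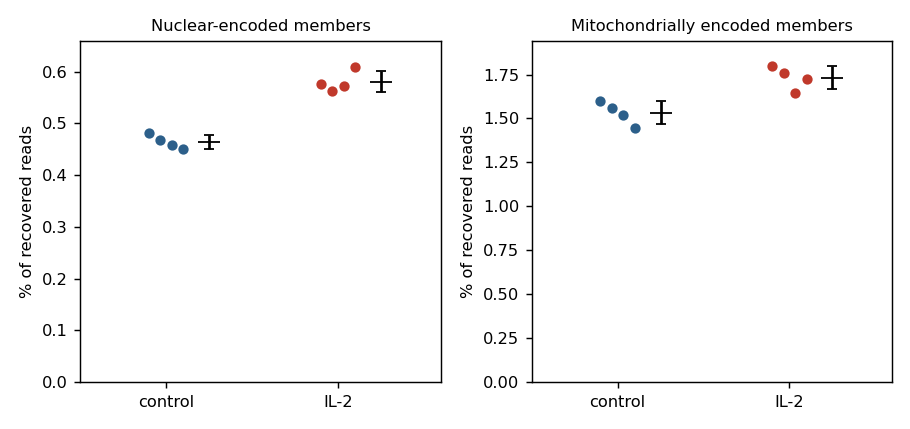
Percent of all recovered reads that fall on the 99 nuclear-encoded members (left) and on the 13 mitochondrially encoded members (right), 1 point per library, with bars for the mean and SD of 4 libraries. IL-2 libraries lie at 0.563% to 0.609% on the left and 1.65% to 1.80% on the right, above the controls at 0.450% to 0.481% and 1.45% to 1.60%.

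Without control library 46 the nuclear count was 16 and without control library 48 it was 17, all upward; leaving out each of the other libraries gave 18 to 24. The mitochondrial count was 2 after quantile normalization.

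The ATP synthase had 10 of its 18 nuclear genes higher, or 55.6% against 12.6% of all tested genes. The median ratio was 1.42, and all 18 differences were positive. The F1 head of the enzyme, which holds the catalytic sites, is built from 5 gene products, and all 5 genes rose. Summed over the head, the libraries held 7351, 7511, 7352 and 7227 normalised reads with IL-2 and 5430.0, 5484, 5577 and 5421 in the controls. Atp5f1b encodes the beta subunit, which carries the catalytic site. It was at 2352, 2326, 2356 and 2253 normalised reads with IL-2 and at 1684, 1588, 1656 and 1680.3 in the controls, a ratio of 1.41 (log2 difference 0.36 ± 0.05 SE, adjusted p = 0.00014). The groups lay far apart next to their spread, with SDs of 47.7 and 44.5. Atp5f1a, for the alpha subunit, was at 3081, 3229, 3087 and 3063 normalised reads with IL-2 and at 2289, 2422, 2464 and 2406 in the controls, a ratio of 1.30 (adjusted p = 0.000681). IL-2 library 42 stood above the other 3 of its group, and no control came near them.

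The gamma, delta and epsilon subunits form the central stalk that turns inside the head. The gamma gene Atp5f1c stood at 1036, 1122, 1095 and 1018 normalised reads with IL-2 and at 844, 865, 855 and 819 in the controls (ratio 1.26, adjusted p = 0.00828). Atp5f1d, for delta, stood at 626, 566, 547 and 608 normalised reads with IL-2 and at 427, 379.9, 458 and 352 in the controls (ratio 1.45, adjusted p = 0.00445). Atp5f1e, for epsilon, stood at 256, 267, 267 and 284 normalised reads with IL-2 and at 186, 229.7, 145 and 163 in the controls (ratio 1.48, adjusted p = 0.0217). In each the IL-2 libraries were all above the controls. Atp5f1e lost its call without control library 47 or 48 (adjusted p 0.06 to 0.0669); the other 4 head genes held theirs without any 1 library.

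**Figure D3:**
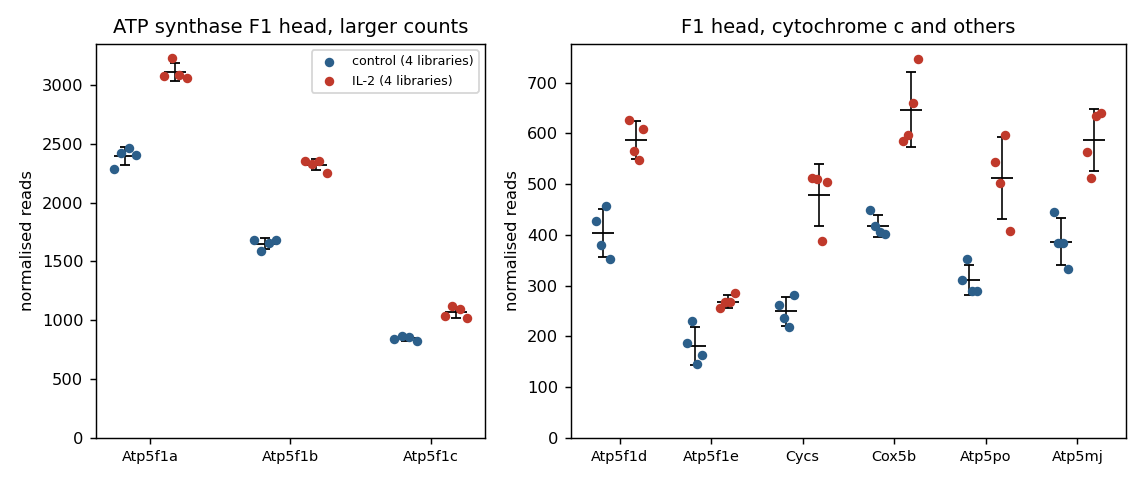
Normalised reads in each library for the 5 genes of the F1 head, for Cycs, and for Cox5b, Atp5po and Atp5mj; points are libraries, bars the mean and SD of 4. In every gene drawn the 4 IL-2 points lie above the 4 control points, as for Atp5f1b at 2253 to 2356 against 1588 to 1684.

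Outside the head, 5 of 13 ATP synthase genes rose, or 38.5% against 12.6% of all tested genes, with a median ratio of 1.43. The peripheral stalk keeps the head from turning with the rotor, and 2 of its 4 genes passed. Atp5po, for the subunit called OSCP that joins stalk and head, was at 544, 502, 598 and 407 normalised reads with IL-2 and at 311, 352, 289 and 289.8 in the controls (ratio 1.65, adjusted p = 0.00299), without overlap. Atp5pd had a ratio of 1.33 (adjusted p = 0.028) with overlapping groups, and lost its call without IL-2 library 41, 43 or 44 or control library 46 or 48 (adjusted p 0.0544 to 0.084) and in 2 other settings (adjusted p 0.0529 to 0.0607). For Atp5pb, the b subunit, the ratio was 1.19 with an adjusted p of 0.345.

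The c ring is the proton-driven rotor, and 3 genes encode the same mature c subunit with different import sequences. Atp5mc2 was at 235, 262, 169 and 179.5 normalised reads with IL-2 and at 100.3, 131, 29.4 and 111 in the controls, a ratio of 2.27 (adjusted p = 0.0114), which is the highest ratio among the tested members. Every IL-2 library was above every control, and control library 47 was lowest. Atp5mc1 had 132 ± 28.4 against 121 ± 50.9 normalised reads (ratio 1.09, adjusted p = 0.731). Atp5mc3 had 268 ± 58.7 against 198 ± 32.7 (ratio 1.36, adjusted p = 0.122), and both overlapped between groups. Whether the 3 genes differ in their response was not tested. Atp5mc2 has identical copies over 441 bases in the annotated pseudogenes Gm10175 and Gm10231, so reads from them and from Atp5mc2 cannot be told apart there.

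Among the 5 membrane accessory genes Atp5mj passed, at 564, 511, 634 and 639 normalised reads with IL-2 and at 446, 384, 385 and 332 in the controls (ratio 1.52, adjusted p = 0.00379). The other 4 had ratios of 1.43 to 1.44 and did not pass, with adjusted p-values of 0.0713 for Atp5me, 0.0765 for Atp5mf, 0.101 for Atp5mg and 0.0756 for Atp5mk. Atp5if1 encodes the inhibitor that stops the enzyme from running backward and splitting ATP. It was at 445, 448, 488 and 525 normalised reads with IL-2 and at 402, 357, 360.4 and 372 in the controls (ratio 1.28, adjusted p = 0.0379), with no overlap, and it lost its call without IL-2 library 43 or 44 or control library 46, 47 or 48 (adjusted p 0.076 to 0.0925). It also lost it without a filter on low values and after scaling without mitochondrially encoded genes, at adjusted p of 0.0512 and 0.0728.

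Cytochrome c, the small protein that ferries electrons from complex III to complex IV and that triggers apoptosis once it leaves mitochondria, was encoded by a member whose groups lay well apart. Cycs was at 512, 510.1, 387 and 504 normalised reads with IL-2 and at 262, 236, 217 and 281 in the controls, a ratio of 1.92 (log2 difference 0.39 ± 0.06 SE, adjusted p = 0.000459). IL-2 library 43 was the lowest of its group and still above every control. The gene Gm10053, 99.9% identical over 946 bases, held 60.3 ± 50.5 and 52.2 ± 25.6 normalised reads, far fewer than Cycs. Copies of Cycs were also found in Gm10108 and Gm13772, each 99.4% identical, over 319 and 317 bases, and in Gm11625, at 96.3%. The deposited values list no gene under these names, and the value of Cycs is uncertain to that extent.

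Complex IV, cytochrome c oxidase, had 6 of 12 tested nuclear genes higher, or 50% against 12.6% of all tested genes. The median ratio was 1.39, and all 12 differences were positive. Cox5b, a subunit on the matrix side that binds zinc, was at 585, 597, 659.9 and 746 normalised reads with IL-2 and at 449, 416, 405 and 402 in the controls (ratio 1.55, adjusted p = 0.00166). Cox6c was at 867, 890.1, 888 and 1041 normalised reads with IL-2 and at 728, 641, 686 and 657 in the controls (ratio 1.36, adjusted p = 0.00481). Cox7b was at 455, 400.1, 411 and 382 normalised reads with IL-2 and at 195, 331, 303 and 214 in the controls (ratio 1.58, adjusted p = 0.0109). The groups did not overlap in any of these 3, and their calls held without each library in turn. Cox8a had 436 ± 56.9 against 293 ± 53.4 normalised reads (ratio 1.49, adjusted p = 0.0166), and lost its call without IL-2 library 41 or control library 46 (adjusted p 0.0513 to 0.0516). Cox5a had 146 ± 26.3 against 78.8 ± 25.9 (ratio 1.85, adjusted p = 0.0232), and lost its call without IL-2 library 43 or 44 or control library 46 or 47 (adjusted p 0.0585 to 0.0709). Ndufa4 had 161 ± 17.8 against 101 ± 21.9 (ratio 1.59, adjusted p = 0.0329), and lost its call without IL-2 library 41, 42 or 43 or control library 47 or 48 (adjusted p 0.063 to 0.0967), and in 3 other settings (adjusted p 0.0547 to 0.0592).

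Several complex IV subunits exist as a widely used form and a form kept for muscle, lung or testis. The wide forms carried the reads here. Cox4i1 had 890.4 ± 97.1 against 728 ± 78.5 normalised reads (adjusted p = 0.0745) and Cox4i2 none in any library. Cox6a1 had 249.6 ± 16.2 against 189 ± 36.8 (adjusted p = 0.096) and Cox6a2 none. Cox7a2 had 125 ± 18.4 against 87.5 ± 18.9 (adjusted p = 0.123), while the muscle form Cox7a1 had 1.02 reads in IL-2 library 44 and none elsewhere. Cox6b1 had 300.0 ± 69.2 against 232 ± 23.0 (adjusted p = 0.18), while Cox6b2, known from testis, had 3.48 reads in IL-2 library 43 and none elsewhere. The pseudogene Cox5b-ps had 1.16 and 1.02 reads in IL-2 libraries 43 and 44 and none elsewhere. Cox7b2, Cox8b, Cox8c and Ndufa4l2 had no reads in any library, as did Ndufb11b of complex I. A count of 0 leaves room for up to 3 reads per library. Cox7a2l, a protein that helps tie complexes III and IV together, had a ratio of 1.03 (adjusted p = 0.82), and its difference turned negative after scaling without mitochondrially encoded genes.

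Complex I, the NADH dehydrogenase and the largest complex of the chain, had 7 of 37 tested nuclear genes higher, with a median ratio of 1.28 and 36 positive differences. The 7 are 18.9% of those tested, against 12.6% of all tested genes. The peripheral arm carries the flavin and the iron-sulfur clusters in 7 core subunits. Of these Ndufs8, which binds a pair of the clusters, rose, at 228, 233, 238 and 209 normalised reads with IL-2 and at 153, 149, 189 and 124 in the controls (ratio 1.48, adjusted p = 0.0267). The groups did not overlap, and the call was lost without IL-2 library 41, 42 or 43 or control library 45, 46 or 48 (adjusted p 0.0544 to 0.0807). The other 6 had ratios of 1.10 to 1.31 and did not pass, among them Ndufv1, the flavin-binding subunit, at 307 ± 66.7 against 267 ± 30.1 normalised reads (ratio 1.15, adjusted p = 0.475).

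Among the 30 accessory subunits, which surround the core and take no part in electron transfer, 6 rose, or 20% against 12.6% of all tested genes. Ndufa13, a membrane subunit also known as GRIM-19, was at 721, 609, 725 and 748 normalised reads with IL-2 and at 435, 518, 539 and 467 in the controls (ratio 1.43, adjusted p = 0.00472). Ndufb11 of the membrane arm was at 416, 384, 383 and 439 normalised reads with IL-2 and at 286, 279, 315 and 292 in the controls (ratio 1.38, adjusted p = 0.0121). Both were without overlap, and both held without each library in turn. Ndufa12 had 261 ± 40.0 against 163 ± 27.3 normalised reads (ratio 1.60, adjusted p = 0.0163), and lost its call without control library 46 (adjusted p 0.0513). Ndufc1, whose YY1 letters are printed above, was at 76.8, 91.1, 146 and 83.3 normalised reads with IL-2 and at 18.5, 58.0, 69.8 and 42.8 in the controls (ratio 2.10, adjusted p = 0.0436). Its groups were apart by a narrow gap, and the call was lost without IL-2 library 42, 43 or 44 or control library 45, 46 or 48 (adjusted p 0.0531 to 0.121). Ndufb8 (ratio 1.43, adjusted p = 0.0294) lost its call without IL-2 library 41, 42 or 44 or control library 45, 46 or 48 (adjusted p 0.0573 to 0.0861). Ndufa6 (ratio 1.33, adjusted p = 0.046) lost its call without IL-2 library 41, 42 or 43 or control library 45, 46, 47 or 48 (adjusted p 0.0524 to 0.128). Under other settings Ndufc1 missed the threshold in 5 (adjusted p 0.0550 to 0.0720), Ndufa6 in 6 (0.0510 to 0.0780) and Ndufb8 in 1 (0.05004).

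Ndufs4, an accessory subunit needed for a stable NADH-oxidising module, had 199.6 ± 64.2 against 214 ± 89.2 normalised reads (ratio 0.932, adjusted p = 0.879), the lowest ratio of the complex, and its sign changed when libraries were weighted by quality. Ndufb4 had 65.9 ± 36.2 against 59.6 ± 22.9 (ratio 1.11, adjusted p = 0.894).

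None of the 5 tested Ndufaf assembly factors, chaperones that put complex I together and are not part of it, passed in either direction. Over all tested genes 12.6% rose and 10.1% fell. Of the 5, 0 had an unadjusted p under 0.05, where 18.3% of all tested genes were higher and 16.4% lower. The median ratio of the 5 was 1.05. Their levels were low, at 53.2 to 94.4 mean normalised reads. Ndufaf7 was at 102, 92.7, 91.4 and 105 normalised reads with IL-2 and at 83.4, 136, 71.2 and 74.0 in the controls (ratio 1.07, adjusted p = 0.777). Ndufaf8 was at 44.3, 66.7, 45.9 and 97.9 normalised reads with IL-2 and at 58.8, 94.2, 86.2 and 48.0 in the controls (ratio 0.888, adjusted p = 0.747). The groups overlapped in both. Ndufaf1 had a ratio of 1.06 (adjusted p = 0.863), Ndufaf5 1.05 (adjusted p = 0.861) and Ndufaf2 1.04 (adjusted p = 0.976). Ndufaf3, Ndufaf4 and Ndufaf6 were under the filter.

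Complex II, succinate dehydrogenase, which also works in the citric acid cycle, had no gene of 4 past the threshold and a median ratio of 1.13. Over all tested genes 12.6% rose and 10.1% fell. At an unadjusted p under 0.05, 1 of the 4 was higher, where 18.3% of all tested genes were higher. Sdha, the flavoprotein of complex II, was at 1105, 1161, 1029 and 1023 normalised reads with IL-2 and at 1134, 1069.7, 1089 and 1055 in the controls (ratio 0.993, adjusted p = 0.942). The libraries of both groups lay within the same range. The 95% interval of its log2 difference ran from -0.11 to 0.10 on the deposited scale. Sdhb, the iron-sulfur subunit, was at 379, 524, 400.1 and 482 normalised reads with IL-2 and at 339, 422, 336 and 313 in the controls (ratio 1.27, adjusted p = 0.115). The membrane anchors Sdhc and Sdhd had ratios of 0.933 (adjusted p = 0.972) and 1.27 (adjusted p = 0.171). Sdhc spread widely among the controls, from 113 to 381 normalised reads.

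Complex III, the cytochrome bc1 complex, had 2 of 9 nuclear genes higher, or 22.2% against 12.6% of all tested genes, with a median ratio of 1.26. In 5 of the 9 every IL-2 library lay above every control, which held for 14.1% of all tested genes. Uqcrfs1 encodes the Rieske iron-sulfur protein that receives electrons from coenzyme Q. It was at 421, 331, 346 and 398 normalised reads with IL-2 and at 291, 283, 228 and 311 in the controls (ratio 1.34, adjusted p = 0.0462). Uqcrc1, a core protein, was at 509, 629, 543 and 547 normalised reads with IL-2 and at 439, 472, 445 and 412 in the controls (ratio 1.26, adjusted p = 0.0429). Neither call was firm. Uqcrfs1 missed the threshold without IL-2 library 41, 43 or 44 or control library 45, 46, 47 or 48 (adjusted p 0.0509 to 0.13) and in 7 other settings (adjusted p 0.0501 to 0.0836), and Uqcrc1 without IL-2 library 42, 43 or 44 or control library 45, 46, 47 or 48 (adjusted p 0.0551 to 0.112) and in 5 (adjusted p 0.0526 to 0.0702). The other core protein, Uqcrc2, was at 375 ± 34.4 against 304 ± 37.8 normalised reads (ratio 1.23, adjusted p = 0.128), without overlap. Cyc1, for cytochrome c1, was at 109, 178, 70.5 and 157 normalised reads with IL-2 and at 112, 95.9, 89.0 and 96.4 in the controls (ratio 1.31, adjusted p = 0.422), and IL-2 library 43 was below every control. Of the small subunits, Uqcr11 had a ratio of 1.43 (adjusted p = 0.098) and Uqcrh one of 1.12 (adjusted p = 0.272).

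Mitochondrially encoded transcripts are cut from long precursors copied from the whole circular genome, so genes on 1 strand share their start. The 12 members on the plus strand and mt-Nd6, which lies alone on the minus strand, were all tested. In reads per kilobase of gene, levels ranged from 1188 for mt-Nd3 to 22565 for mt-Co1 with IL-2, and from 1041 to 19724 for the same genes in the controls. After mt-Co1 came mt-Atp6 (18614 ± 1569 with IL-2, 13886 ± 1977 in the controls), mt-Atp8 (14875 ± 1384 and 13877 ± 479.8) and mt-Cytb (12749 ± 415.6 and 11431 ± 944). The control values of mt-Atp6 and mt-Atp8 lie within their spread.

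The 4 that rose were mt-Nd5, mt-Nd1, mt-Atp6 and mt-Co1. The complex I subunit mt-Nd5, part of the proton-pumping arm (bases 11742 to 13565 of the GRCm38 mitochondrial genome, plus strand), was at 11473, 12069, 11304 and 12455 normalised reads with IL-2 and at 9685, 8980.4, 8617 and 8171 in the controls (ratio 1.33, adjusted p = 0.000627). Another complex I subunit, mt-Nd1, was at 7619.6, 7112, 6534 and 6832 normalised reads with IL-2 and at 5762, 6275, 5649.7 and 5438 in the controls (ratio 1.22, adjusted p = 0.01). In both all IL-2 libraries were above all controls, and both calls held in every alternative run. The proton channel subunit of the ATP synthase, mt-Atp6, was at 13564, 12834, 11138 and 13171 normalised reads with IL-2 and at 9250.3, 11141, 7862 and 9572 in the controls (ratio 1.34, adjusted p = 0.00669). IL-2 library 43 lay just below control library 46, and the call was lost after quantile normalization (adjusted p = 0.0642). The catalytic core of complex IV, mt-Co1, was at 34336, 36726, 33604 and 34788 normalised reads with IL-2 and at 31471, 31207, 31160.0 and 28055 in the controls (ratio 1.14, adjusted p = 0.035). The groups did not overlap, but the call was lost without IL-2 library 41 or 42 or control library 46, 47 or 48 (adjusted p 0.0525 to 0.0983) and in 4 other settings, and after quantile normalization its difference was -0.04 (adjusted p = 0.751).

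**Figure D4:**
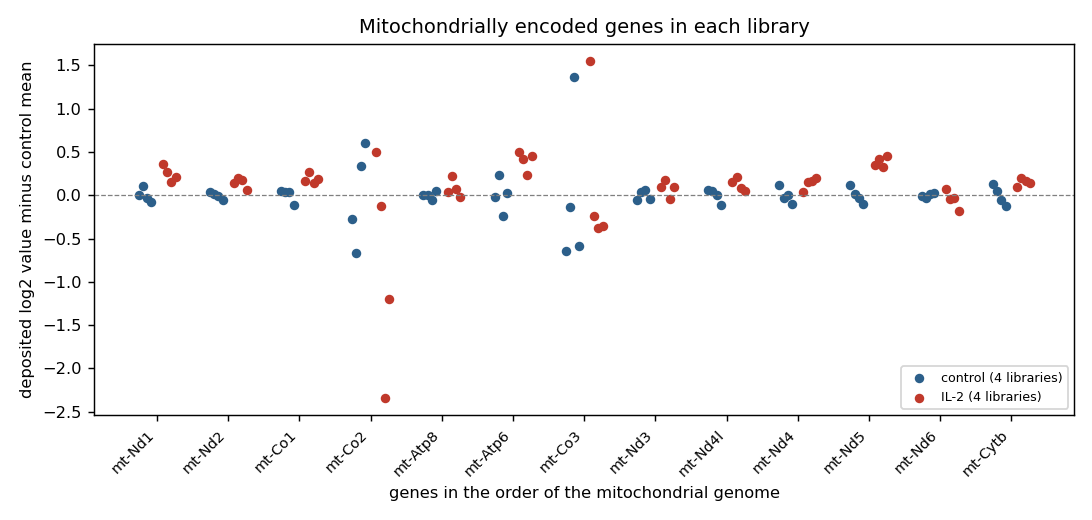
Deposited log2 value of each mitochondrially encoded gene in each library minus the mean of the controls, with genes in the order of the mitochondrial genome and 1 point per library. The points of mt-Nd5 separate by group, while those of mt-Co2 and mt-Co3 scatter within each group.

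The other 9 of the 13 did not pass. Of these, mt-Nd2, mt-Nd3, mt-Nd4, mt-Nd4l and mt-Cytb had ratios of 1.11 to 1.15 and adjusted p-values from 0.0632 for mt-Nd2 to 0.358 for mt-Nd3. For mt-Atp8 the ratio was 1.07 (adjusted p = 0.393); it shares 43 bases with mt-Atp6. The minus-strand gene mt-Nd6 (bases 13552 to 14070) was at 1254, 1109, 1122 and 953 normalised reads with IL-2 and at 1153, 1125, 1181 and 1190.5 in the controls (ratio 0.955, adjusted p = 0.625), with overlapping groups. It shares 14 bases with mt-Nd5 on the other strand.

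In mt-Co2 and mt-Co3, which encode the other core subunits of complex IV, the libraries of a group differed by far more than the groups. The first, mt-Co2, was at 2204, 1189.6, 0 and 273 normalised reads with IL-2 and at 1009.6, 623, 1891 and 2414 in the controls (ratio 0.618, adjusted p = 0.267), so that IL-2 library 43 was listed at 0. The second, mt-Co3, was at 4256, 750.3, 631 and 645 normalised reads with IL-2 and at 430.4, 849, 3637 and 474 in the controls (ratio 1.17, adjusted p = 0.864). IL-2 library 41 and control library 47 were high, and the other 6 were at 430.4 to 849. Both genes have annotated nuclear copies, identical in letters over the compared length, in Gm28661 and Gm28437, and mt-Atp6 has one in Gm10925. Identical copies were also found for mt-Nd4 (Gm28439, over 876 bases) and mt-Nd4l (Gm10222, over 294 bases), whose libraries lay close together, with mt-Nd4 at 7017 ± 383 against 6315 ± 442 and mt-Nd4l at 1024 ± 84.8 against 889 ± 81.8 normalised reads. A stretch of mt-Co2 is shown beside Gm28661 and the more diverged copy Gm13341 (GENCODE M21 transcripts, GRCm38), with bases that differ from mt-Co2 in capitals, because it shows what a short read can and cannot separate.
mt-Co2, bases 481 to 540 of its transcript: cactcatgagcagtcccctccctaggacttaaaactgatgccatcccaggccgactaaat
Gm28661, bases 481 to 540 of its transcript: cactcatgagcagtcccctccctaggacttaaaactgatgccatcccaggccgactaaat
Gm13341, bases 469 to 528 of its transcript: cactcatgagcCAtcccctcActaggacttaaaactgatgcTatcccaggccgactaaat
Over these bases Gm28661 has 0 differences and Gm13341 has 4. Reads of mt-Co2 and Gm28661 cannot be told apart by letters here, and the program that estimated the counts divides such reads among transcripts. The deposited values list no gene named Gm28661, Gm28437 or Gm10925, so whether reads could be assigned to them is not known. Their part in the scatter was not tested. Without mt-Co2, mt-Co3 and mt-Atp6 the remaining mitochondrially encoded genes made up 1.47% ± 0.0296 of reads with IL-2 and 1.31% ± 0.0772 in the controls.

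Near-identical copies, at 95% identity or more over at least 200 bases, were found for 9 of the 13 mitochondrially encoded members and 21 of the 92 nuclear members with a transcript in the annotation. Values of these genes are uncertain to that extent. Among tested nuclear members that were searched and had no such copy, 14 of 60 rose, with a median ratio of 1.28. Over all tested genes 12.6% rose. The 7 nuclear members without a transcript to search include 5 tested, of which 2 rose. Among those with a copy, which include Cycs, Cox5b, Cox6c, Cox7b, Atp5f1c, Atp5po, Atp5mc2, Ndufa12 and Ndufb11, 10 of 21 rose, with a median ratio of 1.37. Of the mitochondrially encoded members that rose, mt-Nd1 has no such copy.

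Other genes that serve the chain are given from lists of its pathway. In 5 lists of assembly factors for complexes I to IV and the ATP synthase, 33 of 51 measured genes were tested. None rose and none fell, against 12.6% and 10.1% of all tested genes, and the median ratio was 1.06. At an unadjusted p under 0.05, 0 were higher and 0 lower, where 18.3% of all tested genes were higher and 16.4% lower. Limma on log2 of reads plus 5 called 1 of 50 higher and 0 lower, against 10.8% and 9.14% of genes in that fit. Surf1, needed to build complex IV, was at 88.1, 155, 86.5 and 123 normalised reads with IL-2 and at 93.3, 24.98, 28.3 and 118 in the controls (ratio 1.71, adjusted p = 0.15). Sdhaf2 of complex II assembly was at 186, 148, 197 and 135 normalised reads with IL-2 and at 285, 288, 189 and 138 in the controls (ratio 0.741, adjusted p = 0.266), and Tmem186 of complex I assembly had a ratio of 0.899 (adjusted p = 0.64). Uqcc2 of complex III assembly had a ratio of 1.43 (adjusted p = 0.181) and Atpaf2 of F1 assembly one of 1.49 (adjusted p = 0.217). Whether subunits and assembly factors differ in their response was not tested.

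Electrons also enter at coenzyme Q by routes that bypass complex I, and there 2 of 6 tested genes rose. The shares over all tested genes were 12.6% upward and 10.1% downward. Gpd2, the mitochondrial glycerol-3-phosphate dehydrogenase that brings in electrons from glycolysis, was at 319.5, 332, 227 and 241 normalised reads with IL-2 and between 80.9 and 123 in the controls, a ratio of 2.72 (log2 difference 0.44 ± 0.06 SE, adjusted p = 0.000324). Etfb, a subunit of the flavoprotein that delivers electrons from fatty acid oxidation, was at 360.4, 275, 351 and 357 normalised reads with IL-2 and at 208, 159.9, 206 and 173 in the controls (ratio 1.80, adjusted p = 0.00185). Neither gene overlapped between groups. In the citric acid cycle, which supplies NADH and succinate, 4 of 13 rose and none fell, with a median ratio of 1.15. Citrate synthase, Cs, was at 1046, 1061, 1029.7 and 1047 normalised reads with IL-2 and at 687, 814, 778 and 868 in the controls (ratio 1.33, adjusted p = 0.00489). Mdh2 and Fh1 also rose, with ratios of 1.39 (adjusted p = 0.0222) and 1.52 (adjusted p = 0.0428). The calls of Gpd2, Etfb and Cs held without each library in turn and in every other setting in which they were tested. Mdh2 lost its call without library 44, 46 or 47 (adjusted p 0.0545 to 0.0664), and Fh1 in 6 of the 8 fits without 1 library, all but those without 43 or 45 (0.0552 to 0.119), and in 6 other settings (0.0503 to 0.0729). Among 7 tested genes of coenzyme Q synthesis none rose and Coq8a, a kinase-like protein of the pathway, fell. It was at 29.9, 75.3, 55.7 and 60.5 normalised reads with IL-2 and at 160.3, 101, 143 and 117 in the controls (ratio 0.424, adjusted p = 0.00647). It was tested in 18 of the 20 alternative fits and kept its call in each.

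Of 22 tested genes that copy, transcribe and process mitochondrial DNA and RNA, none rose and 2 fell. Over all tested genes 12.6% rose and 10.1% fell. At an unadjusted p under 0.05, 0 of the 22 were higher and 3 lower, where 18.3% of all tested genes were higher and 16.4% lower. Polg, the DNA polymerase of mitochondria, was at 222, 230.4, 208 and 242 normalised reads with IL-2 and at 269, 426, 415 and 279 in the controls (ratio 0.65, adjusted p = 0.0311). Fastkd5, a protein of mitochondrial RNA processing, was at 62.7, 65.8, 62.2 and 62.3 normalised reads with IL-2 and at 140.2, 76.0, 105 and 114 in the controls (ratio 0.582, adjusted p = 0.0464). In both every IL-2 library was below every control. Limma on log2 of reads plus 5 tested 34 genes of these lists and called 0 higher and 2 lower, Polg and Mtpap. Of all genes in that fit 10.8% were called higher and 9.14% lower. Mtpap, the poly(A) polymerase of mitochondria, is named here after its values were seen. It was listed at 0 in all 4 IL-2 libraries and at 120.7, 129, 65.9 and 84.7 normalised reads in the controls (adjusted p = 9.30e-06 in that fit). Its mean on the deposited scale was under the filter, so the main test left it out. The call of Polg was lost without library 41, 42, 43, 46 or 47 (adjusted p 0.0552 to 0.0927). With Ddx3y scored as present or absent and used as a covariate, the call of Polg was also lost (0.0577). That of Fastkd5 held only without library 46 among the fits that leave out 1 library (0.0747 to 0.127 in the others), and was lost in 3 other settings (0.0506 to 0.0802). Among 7 tested regulators of respiratory genes, 1 rose and 1 fell, against 12.6% and 10.1% of all tested genes. Pprc1, a coactivator of the PGC-1 family, was at 519, 539, 503 and 417 normalised reads with IL-2 and at 344, 338, 414 and 377 in the controls (ratio 1.34, adjusted p = 0.0266). Gabpb1, a subunit of the ETS factor GABP, was at 370.1, 347, 350.1 and 302 normalised reads with IL-2 and at 574, 368, 474 and 627 in the controls (ratio 0.67, adjusted p = 0.0265). The call of Pprc1 was lost without library 41, 42, 43, 45, 46 or 48 (adjusted p 0.0508 to 0.0722) and that of Gabpb1 without 44, 45 or 48 (0.0625 to 0.0789). Nrf1 itself had 519 ± 25.4 against 584 ± 40.0 normalised reads (ratio 0.89, adjusted p = 0.258).

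**Figure D5:**
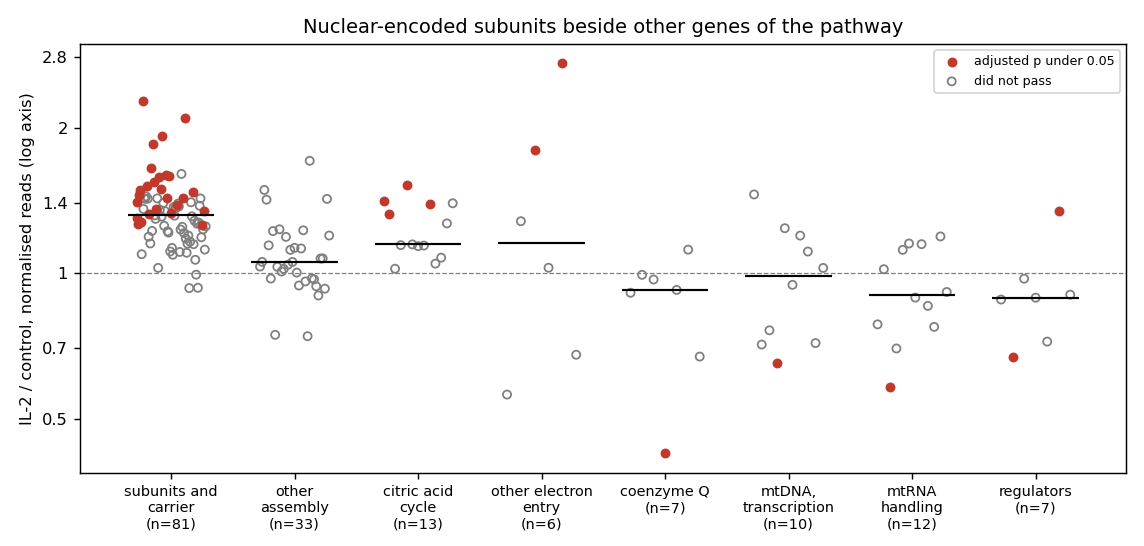
Ratio of group means of normalised reads, IL-2 over control, on a log axis for tested nuclear-encoded subunits with the carrier Cycs (81 genes) and for the lists of other genes of the pathway; each point is 1 gene, filled where the adjusted p was under 0.05, and bars are medians. Filled points lie above 1 among subunits, citric acid cycle and other electron entry, and below 1 in coenzyme Q synthesis and the lists for mitochondrial DNA and RNA; regulators have 1 on each side.

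Markers of the sorted cells were present, with Foxp3 at 1643, 2235, 1922 and 1731 normalised reads with IL-2 and at 1123, 1639, 1799 and 1587 in the controls (adjusted p = 0.135). Il2ra, for the high-affinity chain of the IL-2 receptor, rose 2.61-fold (adjusted p = 4.14e-07). Of 9 measured markers of these cells 2 rose (22.2%) and 1, Cd4, fell. Over all tested genes 12.6% rose and 10.1% fell. The 10 measured B cell genes summed to 109.9 to 212 normalised reads with IL-2 and 409.9 to 506 in the controls, mostly from Cd74. The 10 myeloid genes summed to 1024 to 1279 and 1849 to 2092, mostly from Ctss. Of the 3 tested, Ctss fell (ratio 0.509) and the other 2 did not pass, with ratios of 0.985 and 1.02. Lyz2, which was under the filter, was at 0 in every IL-2 library and at 5.55 to 14.5 in the controls. The 7 genes of CD8 T and NK cells summed to 128 to 192 and 199 to 274. Only 2 of them were tested and neither passed, with ratios of 0.959 and 1.45. Limma on log2 of reads plus 5 tested 5 of them and called 2 lower, where it called 9.14% of all genes lower. The 7 erythroid genes summed to 0 to 43.5 and 0 to 84.9, and the 5 platelet genes to 3.04 to 25.7 and 6.35 to 56.2. Of 10 proliferation genes 9 rose, or 90% against 12.6% of all tested genes. The sums over the 10 were 13139.5, 14064, 13699 and 23044 with IL-2 against 6159.7, 7355, 6492 and 8467. The order of libraries within a group was not the same in these sums and in the share of nuclear members: IL-2 library 44 was highest in both, but control library 48 had the highest control sum and the lowest share, and control library 45 the lowest sum and the highest control share. The part of these cells and of proliferation in the results was not tested.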

How the data were processed

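The authors deposited 1 table of 21524 genes in 8 libraries whose log2 values carry DESeq2's variance-stabilising transformation. The submitters' processing notes name Salmon, DESeq2 and GRCm39, with neither order nor settings. The libraries were stranded total RNA made with a low-input kit, per the labels' protocols. The lowest value, 8.69, stands for 0 reads. Normalised reads were recovered with the inverse of the variance-stabilising formula, checked on 40 low values of which 40 were whole multiples of 1 read within 0.001. No count test was run, since most values are estimates.

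IL-2 was compared with control with limma 3.58.1 (lmFit, eBayes with trend) in R 4.3.3 on the deposited log2 values, without covariates, for 8644 genes with a mean at least 0.5 above the lowest value. Benjamini-Hochberg adjustment ran over these genes, with a threshold of 0.05. The limma step was tested on simulated data. The members and all gene lists (assembly, coenzyme Q, electron entry, citric acid cycle, mitochondrial DNA and RNA, regulators, proliferation, and Treg, B, myeloid, CD8 T and NK, erythroid and platelet markers) were chosen with earlier results of these data known. A list of 4 nuclear-retained RNAs matched no gene and was not used here.

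Named with values were the mitochondrially encoded genes, Cycs, Cyc1 and complex II, up to 4 members per complex with the smallest adjusted p and the 2 with the largest, isoform pairs, Atp5if1, and up to 2 genes per other list; further members were named after their values were seen. Some genes of the other lists are counted but not reported by name here. Coordinates are of GRCm38, the build of the annotation at hand, and were not used with the table. Copies were sought by aligning GENCODE M21 transcripts. Alternatives were other filters, scales, normalizations, variance models, library weights, a covariate for the Y-linked transcript Ddx3y, and leaving out each library. Tables were handled with pandas 2.3.3 and numpy 2.4.6 under Python 3.11.15, and figures drawn with matplotlib 3.10.9.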

Additional observations from a re-analysis of the deposited data

Results flagged for a closer look

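In each group of 4 libraries, the named genes were searched for a library whose gap to its nearest neighbour exceeded Dixon's 95% critical value, over 176 group values of 88 genes, 69 of them members; chance alone flags about 1 in 20 such groups, and 11 were found. For mt-Co3, IL-2 library 41 held 4256.3 normalised reads while the others of its group held 631.4 to 750.3. For mt-Co1, control library 48 held 28054.6 against 31160.0 to 31471.2. For Cycs, IL-2 library 43 held 386.9 against 503.5 to 512.5. For Cox6c, IL-2 library 44 held 1041.3 against 867.0 to 890.1. For Atp5f1a, IL-2 library 42 held 3229.4 against 3062.7 to 3087.0. For the assembly factor Ndufaf1, control library 46 held 40.9 against 64.4 to 69.5. For Atp5mf, control library 48 held 159.5 against 260.5 to 268.3. Outside the members, Etfb in IL-2 library 42 was at 274.7 against 350.7 to 360.4, and Fastkd5 in IL-2 library 42 at 65.8 against 62.2 to 62.7. The testis form Cox6b2 had 3.5 reads in IL-2 library 43 and the muscle form Cox7a1 had 1.0 in IL-2 library 44, where the other libraries of the group had 0.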

How the results depend on the processing

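Leaving out each library in turn gave 1613 to 1807 genes past the threshold over the whole table (1960 with all), 16 to 24 nuclear members (26) and 3 to 5 mitochondrially encoded members (4); the nuclear count was 16 without control library 46 and 17 without control library 48. Quantile normalization left 2 mitochondrially encoded members. In every alternative run each member past the threshold was higher with IL-2. The mitochondrially encoded share was 0.201 percentage points higher with IL-2, 0.172 to 0.230 without each library and 0.158 without mt-Co2, mt-Co3 and mt-Atp6, a set chosen after seeing the data. Of the 30 members that rose, 15 passed in all alternatives that tested them and 16 in all 8 fits without 1 library. Of 67 tested members named in the text, 35 kept their direction and their side of the threshold in every fit that tested them.

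The sign changed in 12 cases outside the fits without 1 library: mt-Co1 at -0.0367 after quantile normalization; Sdhc at 0.039 on log2 of reads plus 5, 0.0425 on log2 of reads plus 1 and 0.0466 with the Ddx3y covariate; Ndufs4 at 0.0013 with array weights; Cox7a2l at -0.0024 scaled without mitochondrially encoded genes; and Ndufaf2 at -0.0065 and -0.012 (reads plus 5 and plus 1), -0.0067 (quantile), -0.0024 (median centring), -0.0468 (scaled without mitochondrially encoded genes) and -0.0017 (Ddx3y). Without 1 library the log2 difference of mt-Co3 ran from -0.32 to 0.60, Sdha from -0.0295 to 0.0088, Sdhc from -0.12 to 0.0795, Ndufs4 from -0.0948 to 0.0597, Ndufb4 from -0.037 to 0.0677, Cox7a2l from -0.0091 to 0.0668, Atp5mc1 from -0.0294 to 0.11, Ndufaf5 from -0.0056 to 0.0528, Ndufaf1 from -0.0142 to 0.0407 and Ndufaf2 from -0.0346 to 0.0411. Apart from mt-Co1, these members did not pass with all libraries. The cause was not tested.

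No paired analysis was possible because the labels give the groups no shared replicate numbers. A share without mitochondrial rRNA and tRNA genes was not run, since no such gene was among the members. Depth limits members near 50.04 normalised reads most.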
